A study of Mus musculus with 12 samples.

Results

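Cadherins and neural adhesion molecules hold cells of a tissue together. The transcripts of 9 such genes, out of 18193 genes measured, were followed through 12 MYCN-driven mouse tumors. The genes are Cdh1, Cdh2, Cdh3, Cdh4, Cdh11, Cdh13, Ncam1, L1cam and Ctnnb1, and the platform annotation assigns 26 probe sets to them. All tumors were untreated and came from LSL-MYCN;hGFAP-Cre mice. In these animals Cre recombinase, driven by the human GFAP promoter, removes a stop cassette and so switches on a MYCN and luciferase transgene in GFAP-positive cells on a mixed strain background. The labels number the tumors, of which 12 were measured: 9 pancreatic tumors (1 to 5 and 9 to 12) and 3 tumors labelled as brain (6, 7 and 8). The study places the head tumors of this line at the pituitary gland, so they are called pituitary tumors here. Per array, the sources used here name neither the age nor the mouse. Arrays of different sites can share a mouse.

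Classical cadherins bind the same cadherin on a neighbouring cell through calcium-dependent extracellular repeats. Their cytoplasmic tail recruits beta-catenin, and alpha-catenin links this complex to actin. E-cadherin is typical of epithelia, including endocrine islets, and N-cadherin of neural and also of endocrine cells. Ncam1 and L1cam belong to the immunoglobulin superfamily, act without calcium and are well known from neurons and neuroendocrine tumors.

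Of the 9 genes, Cdh1 had the largest difference between the sites and the only one that passed at the probe set with the highest mean of its gene. Values are log2 signals, so that 1 unit is a doubling, and differences are pancreatic minus pituitary tumors. A difference passed when the limma p, adjusted after Benjamini-Hochberg over all 45037 probe sets tested, was under 0.05. Of the 26 probe sets, 2 were higher in pancreatic tumors (1 each of Cdh1 and Cdh2), 1 was higher in pituitary tumors (Cdh11) and 23 did not pass. The background shares over all probe sets were 1.18% for the former direction, 3.45% for the latter and 4.63% for either. At 4 of the 26 probe sets all tumors of one site lay above all of the other, against 7.88% of all probe sets (9.56% of genes at 1 probe set each). Before adjustment, 10 of the 26 had a limma p under 0.05. The share of all probe sets at that level was not counted, so no excess can be read from this. By signal, 11 of the 26 probe sets exceeded the array median, the signal of the median probe set, in all 12 tumors, 9 in some of them and 6 in none. The median probe set stands here for background, since no detection calls were at hand.

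**Figure D1:**
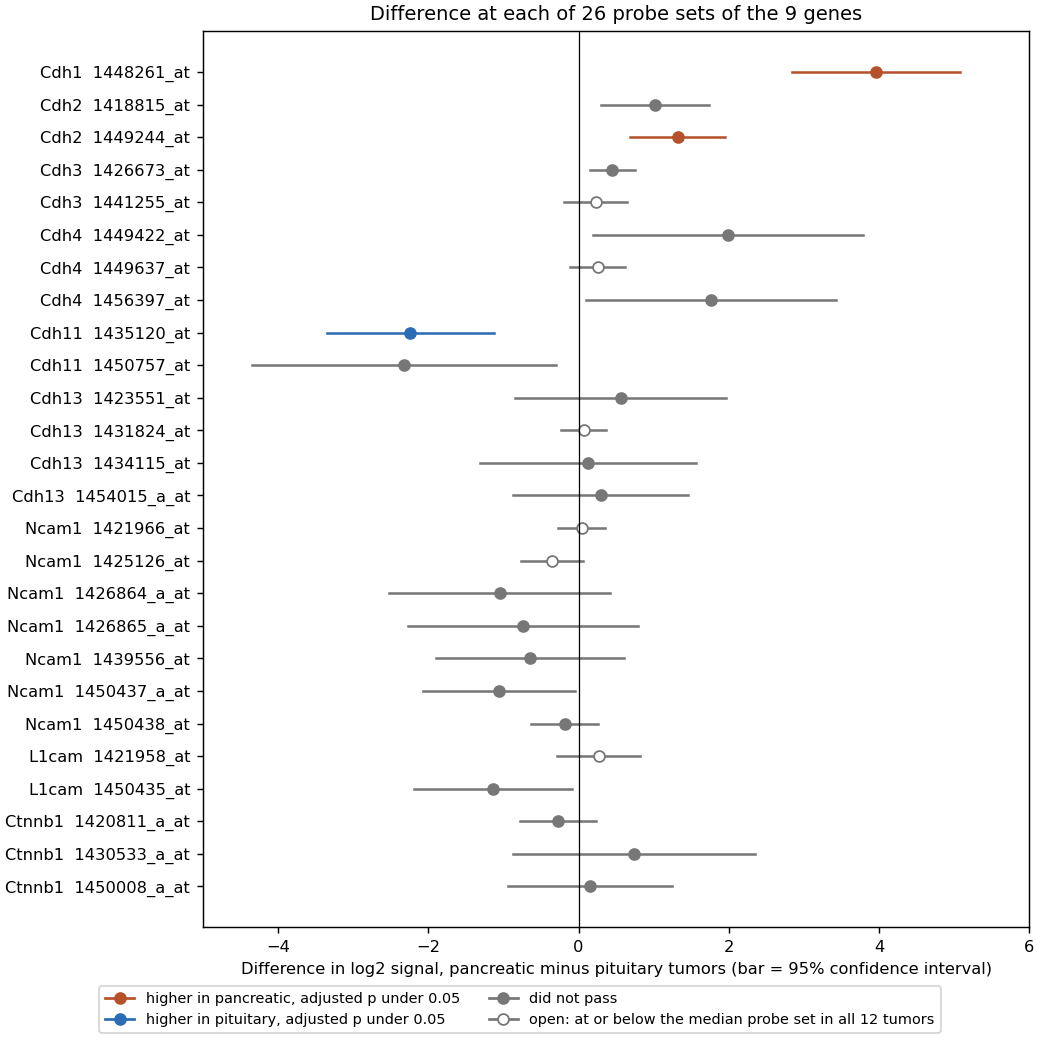
Difference in log2 signal (pancreatic minus pituitary tumors, x axis) at each of the 26 probe sets of the 9 genes, with its 95% confidence interval. Cdh1 lies farthest to the right at 3.96, the probe sets of Cdh11 lie at -2.24 and -2.32, and the 7 of Ncam1 lie between -1.06 and 0.04.

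Several tumors stood apart in ways that touch these genes. Anterior pituitary genes, 10 in all, had a mean signal of 9.45 to 11.46 at the pituitary and 4.92 to 5.41 at the pancreas. Pituitary tumors 6 and 8 also held brain transcripts, with a mean of 7 neuronal genes of 11.34 and 11.32, while tumor 7 had 7.41 and the pancreas 5.31 to 7.81. Their mean of 7 glial genes was 11.57 and 11.52, while tumor 7 had 7.36 and the pancreas 5.51 to 6.71. All 7 glial and all 7 neuronal genes lay above the median probe set in tumors 6 and 8, and 5 of each in tumor 7. Acinar genes (7 in all) averaged 12.84 in pancreatic tumor 3, 11.96 in tumor 4 and 6.06 to 9.88 in the remaining ones. Pancreatic tumor 2 had a mean of 8.66 over 6 neuroendocrine genes, where the other pancreatic tumors had 11.60 to 12.72. Pancreatic tumors 10, 11 and 12 had array means of 5.98 to 5.99, below the 6.07 to 6.11 of the other 9 arrays.

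E-cadherin (Cdh1), the cadherin of epithelial junctions, was about 15.6-fold higher in pancreatic than in pituitary tumors. Its 1 probe set (1448261_at) had 12.16, 10.24, 9.10, 11.35, 11.21, 12.03, 11.23, 10.62 and 11.02 in pancreatic tumors 1, 2, 3, 4, 5, 9, 10, 11 and 12. Pituitary tumors 6, 7 and 8 had 7.00, 7.13 and 6.96. All pancreatic tumors thus lay above all pituitary tumors, with a gap of 1.97 between the lowest of the one and the highest of the other. The means were 10.99 ± 0.93 (SD, n = 9) and 7.03 ± 0.09 (SD, n = 3). The difference of 3.96 (standard error 0.51, 95% confidence interval 2.84 to 5.08) passed the test (limma, adjusted p = 0.00083). The pituitary tumors kept signals above the median probe set of their arrays. Tumor 7, with fewer brain transcripts than tumors 6 and 8, had a signal like theirs. What part these transcripts have in the Cdh1 values was not tested. In bulk tumors fewer cells with a transcript and less of it per cell cannot be told apart. Pancreatic tumor 3, with the lowest Cdh1, also had the most acinar transcripts, whereas tumor 4, with nearly as much of them, had 11.35. Cdh1 passed when any 1 tumor was left out. With pituitary tumors 6 and 8 both left out, which leaves 1 pituitary tumor that is assumed to vary like the others, the difference was 3.87 (limma, adjusted p = 0.0936).

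N-cadherin (Cdh2), the cadherin of neural and endocrine cells, had high signals at both sites and a smaller difference than Cdh1. At probe set 1449244_at the pancreatic tumors, in order of number, had 11.07, 9.92, 10.17, 10.12, 9.70, 10.97, 10.34, 9.97 and 10.01. Pituitary tumors 6, 7 and 8 had 9.20, 8.48 and 9.12. The lowest pancreatic tumor lay 0.50 above the highest pituitary tumor. This probe set was higher in pancreatic tumors by 1.32 (standard error 0.29, limma adjusted p = 0.024), which is 2.49-fold. At the other and brighter probe set (1418815_at) the tumors had 10.76 to 12.40 in the pancreas and 10.61, 9.94 and 10.58 in the pituitary. Its groups did not overlap either, but lay only 0.15 apart, and the difference of 1.02 (standard error 0.33) did not pass (limma, adjusted p = 0.109). The mean of both probe sets passed, with 1.17 (limma, adjusted p = 0.0319). The call at 1449244_at was lost without pituitary tumor 6 (1.45, adjusted p = 0.0695), 7 (1.09, adjusted p = 0.0898) or 8 (1.41, adjusted p = 0.0753). It was also lost without pancreatic tumors 10, 11 and 12 (1.39, adjusted p = 0.0941), without pancreatic tumors 2, 3 and 4 (1.41, adjusted p = 0.0544) and without both pituitary tumors 6 and 8 (1.77, adjusted p = 0.173). In every one of these limma fits the difference kept its sign. At the brighter probe set Cdh2 was at its highest in pancreatic tumors 1 and 9, as Cdh1 was.

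**Figure D2:**
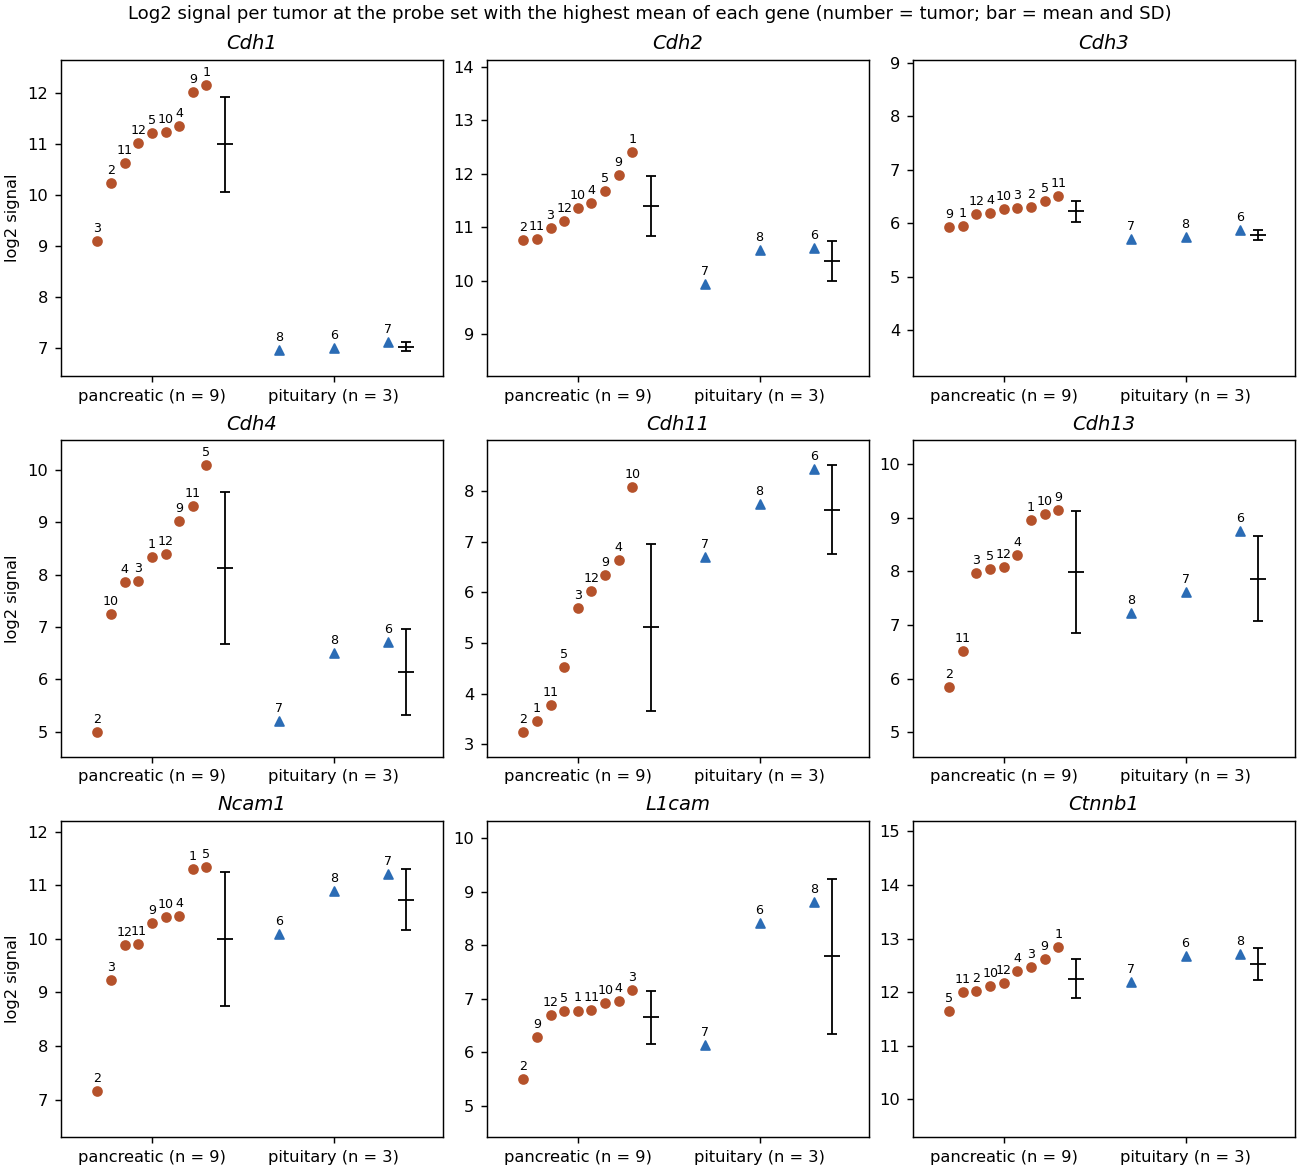
Log2 signal (y axis) of each gene at its probe set with the highest mean, with 1 numbered point per tumor, 9 pancreatic (circles) and 3 pituitary (triangles), and the mean and SD of each group beside the points. The Cdh1 panel shows a gap of 1.97 between the groups, and tumor 2 is the lowest pancreatic tumor for Cdh2, Cdh4, Cdh11, Cdh13, Ncam1 and L1cam.

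P-cadherin (Cdh3), a cadherin of placenta and basal epithelia, and R-cadherin (Cdh4), first known from the retina, did not pass. Cdh3 stayed close to background, with 5.93 to 6.51 at the pancreas and 5.70 to 5.88 at the pituitary (probe set 1426673_at). Its groups did not overlap, with a gap of 0.05, and the difference of 0.45 had a 95% confidence interval of 0.15 to 0.75 (limma, adjusted p = 0.0927). Cdh3 and Cdh1 are neighbours on the chromosome in the RefSeq gene table, and their differences were 0.45 and 3.96. Cdh4 had 8.34, 5.00, 7.87, 7.87, 10.09, 9.02, 7.25, 9.31 and 8.40 in pancreatic tumors in order of number, and 6.71, 5.20 and 6.51 in pituitary tumors 6, 7 and 8 (probe set 1449422_at). All pancreatic tumors but tumor 2 lay above every pituitary tumor. The difference of 1.99 (95% confidence interval 0.20 to 3.78) did not pass (limma, adjusted p = 0.207). Probe set 1456397_at followed the same order of tumors closely (Pearson's r 0.941 over the pancreatic tumors, as a description) and differed by 1.76 (limma, adjusted p = 0.228). Without pancreatic tumor 2, which is also low in neuroendocrine transcripts, both probe sets passed (2.38, adjusted p = 0.028, and 2.15, adjusted p = 0.0211, limma). What part the makeup of tumor 2 has in this was not tested. The remaining probe set of each gene did not exceed the array median in any of the 12 tumors.

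Cdh11 (OB-cadherin), a type II cadherin known from mesenchyme and osteoblasts, was the 1 member with a probe set that was higher in pituitary tumors. This probe set (1435120_at) had 6.96, 4.66 and 6.27 in pituitary tumors 6, 7 and 8 and 2.81 to 5.35 in the pancreatic tumors, with a median of 3.59. The difference was -2.24 (standard error 0.51, limma adjusted p = 0.0286). The groups overlapped through pancreatic tumor 10, at 5.35, while the other 8 pancreatic tumors lay below all pituitary tumors. No pancreatic tumor, nor pituitary tumor 7, exceeded the array median. The brighter probe set (1450757_at) had 8.44, 6.70 and 7.74 in the pituitary tumors and 3.45, 3.25, 5.69, 6.64, 4.52, 6.34, 8.07, 3.77 and 6.03 in the pancreatic tumors. Its difference was -2.32, and it did not pass (limma, adjusted p = 0.191). The spread of 1.65 (SD, n = 9) among pancreatic tumors exceeded that of 97.7% of the probe sets above the median probe set. At both probe sets the highest pituitary values were those of tumors 6 and 8, which carry brain transcripts. Of 7 stromal genes, 7 lay above the median probe set in pancreatic tumor 10 and pituitary tumors 6 and 8, and 5 or 6 in the other tumors. Averaged, these genes had 8.37 in tumor 10, from 6.29 to 8.50 elsewhere in the pancreas, and from 7.76 to 8.70 at the pituitary. The part of these cell types in the Cdh11 values was not tested. The call at 1435120_at was lost without pituitary tumor 6 (-1.74, adjusted p = 0.183) or 8 (-2.08, adjusted p = 0.148), without pancreatic tumor 12 (-2.22, adjusted p = 0.0533) and without the variance moderation of limma (adjusted p = 0.0607). Without pancreatic tumors 2, 3 and 4 the difference was -2.20 (adjusted p = 0.086), and without both pituitary tumors 6 and 8 it was -0.93 (limma, adjusted p = 0.9995).

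T-cadherin (Cdh13), which lacks a cytoplasmic tail and is held to the membrane by a lipid anchor, did not differ beyond the spread of the tumors. At probe set 1434115_at the pancreatic tumors had 8.95, 5.84, 7.97, 8.31, 8.05, 9.15, 9.07, 6.52 and 8.08 in order of number, and pituitary tumors 6, 7 and 8 had 8.75, 7.62 and 7.23. The pituitary values lay inside the pancreatic range. The difference of 0.13 had a 95% confidence interval of -1.31 to 1.57 (limma, adjusted p = 0.936). Probe set 1423551_at gave 0.56 (interval -0.85 to 1.97, adjusted p = 0.673) and ordered the pancreatic tumors alike (Pearson's r 0.948, as a description). Tumors 2 and 11 were the lowest at both. The remaining probe sets exceeded the array median in no tumor or only in pancreatic tumor 10.

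Ncam1, a homophilic adhesion molecule of neurons and a marker of neuroendocrine tumors, had high signals at both sites and did not pass at any of its 7 probe sets. At the brightest (1426865_a_at) the pancreatic tumors had 11.30, 7.16, 9.23, 10.42, 11.34, 10.30, 10.41, 9.89 and 9.88 in order of number. Pituitary tumors 6, 7 and 8 had 10.10, 11.20 and 10.89, within the range of the pancreatic tumors. The difference was -0.74 (95% confidence interval -2.27 to 0.80, limma adjusted p = 0.602). Its highest pituitary value was that of tumor 7, the pituitary tumor with the fewest brain transcripts. Pancreatic tumor 2 stood well below the other pancreatic tumors, of which the lowest was tumor 3. The other probe sets whose signal lay above the median probe set in most tumors were 1426864_a_at and 1450437_a_at. They differed by -1.05 (adjusted p = 0.423) and -1.06 (95% confidence interval -2.07 to -0.04, adjusted p = 0.238). At 1450437_a_at the order of the pituitary tumors was another, with 7.47, 6.98 and 8.45 in tumors 6, 7 and 8. Probe sets of Ncam1 thus did not rank the pituitary tumors alike, and the part of brain transcripts in their values was not tested. Of the remaining 4 probe sets, 2 exceeded the array median in no tumor and 2 in fewer than 6.

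L1cam, an adhesion molecule of growing axons, split the pituitary tumors rather than the sites. At probe set 1450435_at pituitary tumors 6 and 8 had 8.42 and 8.81, above all pancreatic tumors, while tumor 7 had 6.14. The pancreatic tumors had 6.78, 5.51, 7.16, 6.96, 6.78, 6.28, 6.92, 6.79 and 6.69 in order of number. Tumor 7 thus lay below all pancreatic tumors except tumor 2. The difference of -1.14 (standard error 0.48) did not pass (limma, adjusted p = 0.218). Without pituitary tumor 7 it was -1.96 and passed (limma, adjusted p = 0.00593), and without tumors 6 and 8 it was 0.51. Pituitary tumors 6 and 8 are those with all 7 neuronal and all 7 glial genes above the median probe set, and the part of these cells in the L1cam signal was not tested. Probe set 1421958_at never exceeded the array median.

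**Figure D3:**
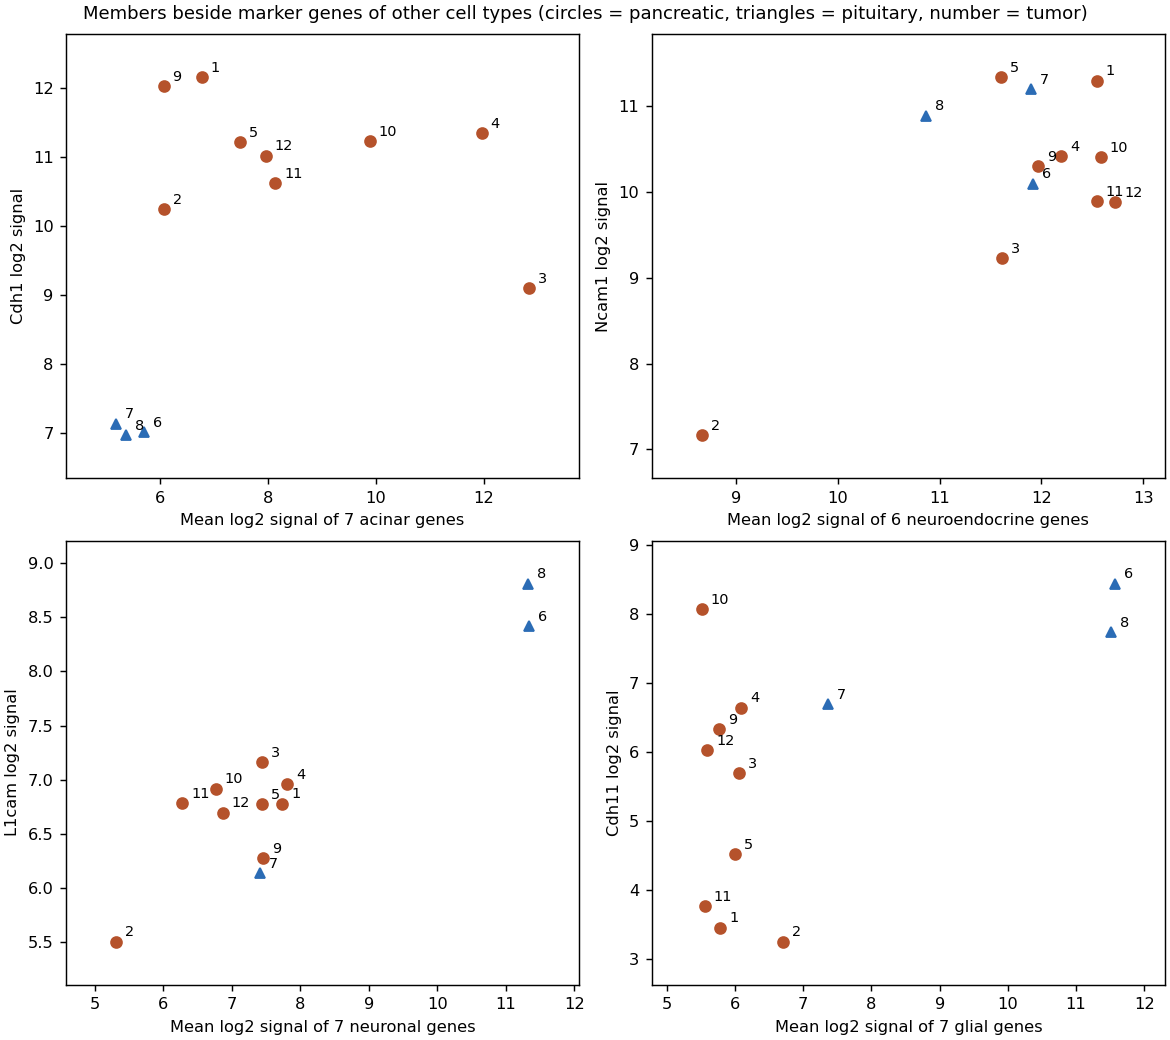
Log2 signal of Cdh1, Ncam1, L1cam and Cdh11 (y axes, brightest probe set) against the mean log2 signal of acinar, neuroendocrine, neuronal and glial genes (x axes), with 1 numbered point per tumor, circles for pancreatic and triangles for pituitary. Cdh1 is near 7 in all 3 pituitary tumors, L1cam is above 8 only in pituitary tumors 6 and 8, and Ncam1 is lowest in pancreatic tumor 2.

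Beta-catenin (Ctnnb1), which binds cadherin tails and acts in Wnt signalling, had no probe set that passed. At probe set 1420811_a_at the pancreatic tumors ranged from 11.64 to 12.85 with a median of 12.17, and pituitary tumors 6, 7 and 8 had 12.67, 12.19 and 12.71. The difference was -0.27 (95% confidence interval -0.77 to 0.23, limma adjusted p = 0.553). Probe set 1450008_a_at differed by 0.15 (interval -0.94 to 1.24, adjusted p = 0.895). Probe set 1430533_a_at differed by 0.74 (interval -0.87 to 2.35, adjusted p = 0.62). There, pancreatic tumors 10, 11 and 12 had 9.15 to 9.19 and the other pancreatic tumors 5.28 to 7.92. Tumors 10, 11 and 12 are the arrays with the lower mean signal, and without them the difference was 0.02. As a description, Pearson's r over the pancreatic tumors was 0.185 between 1420811_a_at and 1430533_a_at, 0.625 between 1420811_a_at and 1450008_a_at, and 0.83 between 1430533_a_at and 1450008_a_at.

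Within the pancreas the 9 genes varied to unequal degrees. At the brightest probe set of each, the SD over the 9 pancreatic tumors was 0.19 for Cdh3, 0.37 for Ctnnb1, 0.49 for L1cam and 0.56 for Cdh2. It was 0.93 for Cdh1, 1.14 for Cdh13, 1.25 for Ncam1, 1.45 for Cdh4 and 1.65 for Cdh11. The SD of Cdh3 exceeded that of 4.86% of the probe sets above the median probe set, and the SDs of Cdh4 and Ncam1 exceeded those of 96.1% and 93.2%. Tumor 2 was the lowest pancreatic tumor for 6 of the 9 genes. As a description over the 9 pancreatic tumors, Pearson's r was 0.804 between Cdh1 and Cdh2, 0.797 between Cdh4 and Ncam1, and 0.77 between Cdh2 and Cdh13. Spearman's rho was 0.9, 0.383 and 0.8 for these pairs, and tumor 2 was the lowest for both Cdh4 and Ncam1. Between Cdh3 and Ctnnb1 Pearson's r was -0.836 and Spearman's rho -0.85, where Cdh3 spans only 0.57 log2 units. These values share arrays and cell makeup, and no test was made of them. Among 9879 genes above the array median in all 9 pancreatic tumors, those most like Cdh1 were Pgghg, Rab4a and Mfsd6 (Pearson's r 0.923, 0.909 and 0.908 over 9 tumors). Those most like Cdh2 were Pik3ca, Kbtbd11 and Btbd1 (0.982, 0.982 and 0.98). With so few tumors and so many genes, values of this size are a ranking and no more.

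Other adhesion genes were more often higher in pituitary than in pancreatic tumors. Of 117 genes measured in 13 lists, each taken at its probe set with the highest mean, 16 passed as higher at the pituitary, 2 as higher at the pancreas and 99 not at all. The background shares over 18193 genes were 4.5%, 1.61% and, for either direction, 6.11%. The median difference was -0.30 over the lists and 0.03 over all genes. The 9 genes above are not counted in these lists. Without pituitary tumor 6 the count higher at the pituitary was 8, without tumor 8 it was 10, and without tumor 7 it was 24. With array weights it was 27, and without pancreatic tumors 10, 11 and 12 it was 8. Without both tumors 6 and 8, which carry the glial and neuronal transcripts, it was 6, all among the 16 (Cdh10, Chl1, Dscaml1, Nrcam, Pcdh7 and Thy1). The part of these transcripts in the count was not tested. Shares over all genes were not counted for these alternative fits, so the counts may move with the calls over all genes.

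Neural adhesion molecules of the immunoglobulin superfamily held 7 of the 16. Their list also holds the ankyrins Ank2 and Ank3, which are not of that superfamily and did not pass. Of the 20 genes measured in this list, 7 were higher in pituitary tumors, 0 in pancreatic tumors and 13 did not pass, with a median difference of -1.22. The share of all genes that passed as higher at the pituitary was 4.5%. Dscaml1, a homophilic receptor of neurons, had 8.74, 8.83 and 8.59 in pituitary tumors 6, 7 and 8 and a mean of 3.65 ± 0.20 (SD, n = 9) in pancreatic tumors (difference -5.07, limma adjusted p = 2.34e-09). Its value in tumor 7 was like those in tumors 6 and 8, and the part of brain transcripts in these values was not tested. Thy1, a surface glycoprotein of neurons and T cells, was likewise high in tumors 6, 7 and 8, at 12.07, 12.18 and 10.46 (difference -4.86, limma). Nrcam, a relative of L1cam, had 10.17, 6.71 and 9.83 (difference -5.22), and Cntn1, a lipid-anchored axonal molecule, 11.55, 10.54 and 12.14 (difference -5.03). Chl1, a close relative of L1cam named here after its values were seen, had 9.97, 5.42 and 10.21, and the highest pancreatic tumor had 4.49. Nrcam and Chl1 thus had their highest values in tumors 6 and 8, as L1cam had. Nfasc, also a relative of L1cam and named after its values were seen, had 8.32, 8.60 and 8.41. It was not highest in tumors 6 and 8 and did not pass (difference -0.10, limma adjusted p = 0.942). Dscaml1, Nrcam and Chl1 exceeded the array median in 0 of 9 pancreatic tumors, and Chl1 not in pituitary tumor 7 either. As means of all probe sets of the gene, Dscaml1 differed by -1.05 and Nrcam by -2.79, and both passed.

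Among type II cadherins, 2 of 10 were higher in pituitary tumors, Cdh10 (8.60, 7.58 and 6.99 in tumors 6, 7 and 8, difference -3.35) and Cdh7 (6.38, 5.55 and 6.78, difference -1.83). Neither exceeded the array median in any pancreatic tumor. Delta protocadherins are adhesion molecules best known from neurons and lack catenin-binding tails. Of 10 measured, 5 were higher in pituitary tumors and 0 in pancreatic tumors, with a median difference of -1.44. For this list and the type II cadherins the share of all genes higher at the pituitary was 4.5%. Pcdh1, named after its values were seen, alone differed the other way and did not pass (0.88, limma adjusted p = 0.246). The largest differences of the list were -3.61 for Pcdh7, -2.76 for Pcdh10, -2.70 for Pcdh20 and -2.69 for Pcdh9. Pcdh10 had 8.48, 3.53 and 6.41 in tumors 6, 7 and 8 and so was at the pancreatic level of 3.04 to 3.59 in tumor 7. Pcdh20 had 7.98, 7.45 and 8.16 and was above all pancreatic tumors (4.16 to 7.43) in each of them. The calls of Pcdh10, Pcdh20, Cntn1, Ctnna2 and Axin2 were lost without pituitary tumor 6 and without tumor 8, with the sign kept. That of Pcdh10 was lost in 10 of 12 fits with 1 tumor left out, 8 of them without a pancreatic tumor, and it passed in 8 of 22 alternative settings.

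Intracellular partners held 2 of the 16. Beside the counts per list that follow, 4.5% of all genes passed as higher at the pituitary and 6.11% in either direction. Of 11 catenins and linkers of junctions to actin, 1 was higher in pituitary tumors, Ctnna2, the neuronal alpha-catenin, with 9.01, 8.21 and 8.31 against 5.61 to 7.66 in the pancreatic tumors (difference -1.74, limma adjusted p = 0.0191). Of 9 genes of the complex that degrades beta-catenin, Axin2, itself a target of Wnt signalling, was higher in pituitary tumors (7.40, 7.43 and 7.73 against 6.11 to 7.25, difference -1.05, limma adjusted p = 0.0212). As a mean of its 2 probe sets Axin2 differed by -0.20 and did not pass (adjusted p = 0.549). Of 5 desmosome genes, 6 proteases that cleave cadherins and 3 polysialyltransferases, which add the polysialic acid of NCAM, 0 passed. Their members with the highest mean were Dsg2 (-0.40), Psenen (-0.11) and St8sia3 (-0.06).

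Of 12 genes of epithelial junctions and fate, 0 passed, with a median difference of 0.49. Only Epcam, Esrp1 (-0.22) and Ovol2 (-0.44) had differences below 0. For 2 of the 12 the sites did not overlap, against 9.56% of all genes. These were Esrp2 (difference 1.53, limma adjusted p = 0.144) and Grhl2 (0.41, adjusted p = 0.121), both higher at the pancreas. Esrp1, Ovol2, Esrp2 and Grhl2 are named after their values were seen. Epcam, an epithelial surface molecule, had 11.92, 13.06 and 11.68 in pituitary tumors 6, 7 and 8 and 7.91 to 12.96 in pancreatic tumors (difference -0.69, limma adjusted p = 0.705), the lowest being tumor 2. Of 9 transcription factors known to repress E-cadherin or related to these, 0 passed at a median difference of 0.0061. Tcf4 had the highest mean (difference -1.85, limma adjusted p = 0.112). Zeb2 had 8.20, 5.84 and 8.11 in tumors 6, 7 and 8 and 3.74 to 7.42 in pancreatic tumors (difference -2.17, limma adjusted p = 0.110). Zeb2 is named here after its values were seen. Zeb1 (-0.92) and Twist1 (-0.12) also differed below 0. Snai1 (0.15), Snai2 (0.55), Snai3 (0.13), Tcf3 (0.11) and Twist2 (0.0061) differed above 0. The genes that were higher in pancreatic tumors were Nectin3, an adhesion molecule of adherens junctions (8.94 ± 0.78 against 6.96 ± 0.73, SD, n = 9 and n = 3, difference 1.98, limma adjusted p = 0.0346), and Cdhr2, a protocadherin of the epithelial brush border (6.33 ± 0.73 against 4.40 ± 0.39, difference 1.93, limma adjusted p = 0.0227). For both genes the sites overlapped, Nectin3 with 7.55 in pancreatic tumor 5 and 7.78 in pituitary tumor 6. Cdhr2 had 4.73 in pancreatic tumor 2 and 4.85 in pituitary tumor 6. The call of Nectin3 was lost without pituitary tumor 7 or 8 or any 1 of 5 pancreatic tumors. As a mean of its probe sets Nectin3 differed by 0.94 and did not pass (limma, adjusted p = 0.0623). It passed in 11 of 23 alternative settings. The call of Cdhr2 was lost without pituitary tumor 6, 7 or 8. Cdh15, the muscle cadherin and the last of the classical type I group, differed by -0.34 (limma, adjusted p = 0.52).

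**Figure D4:**
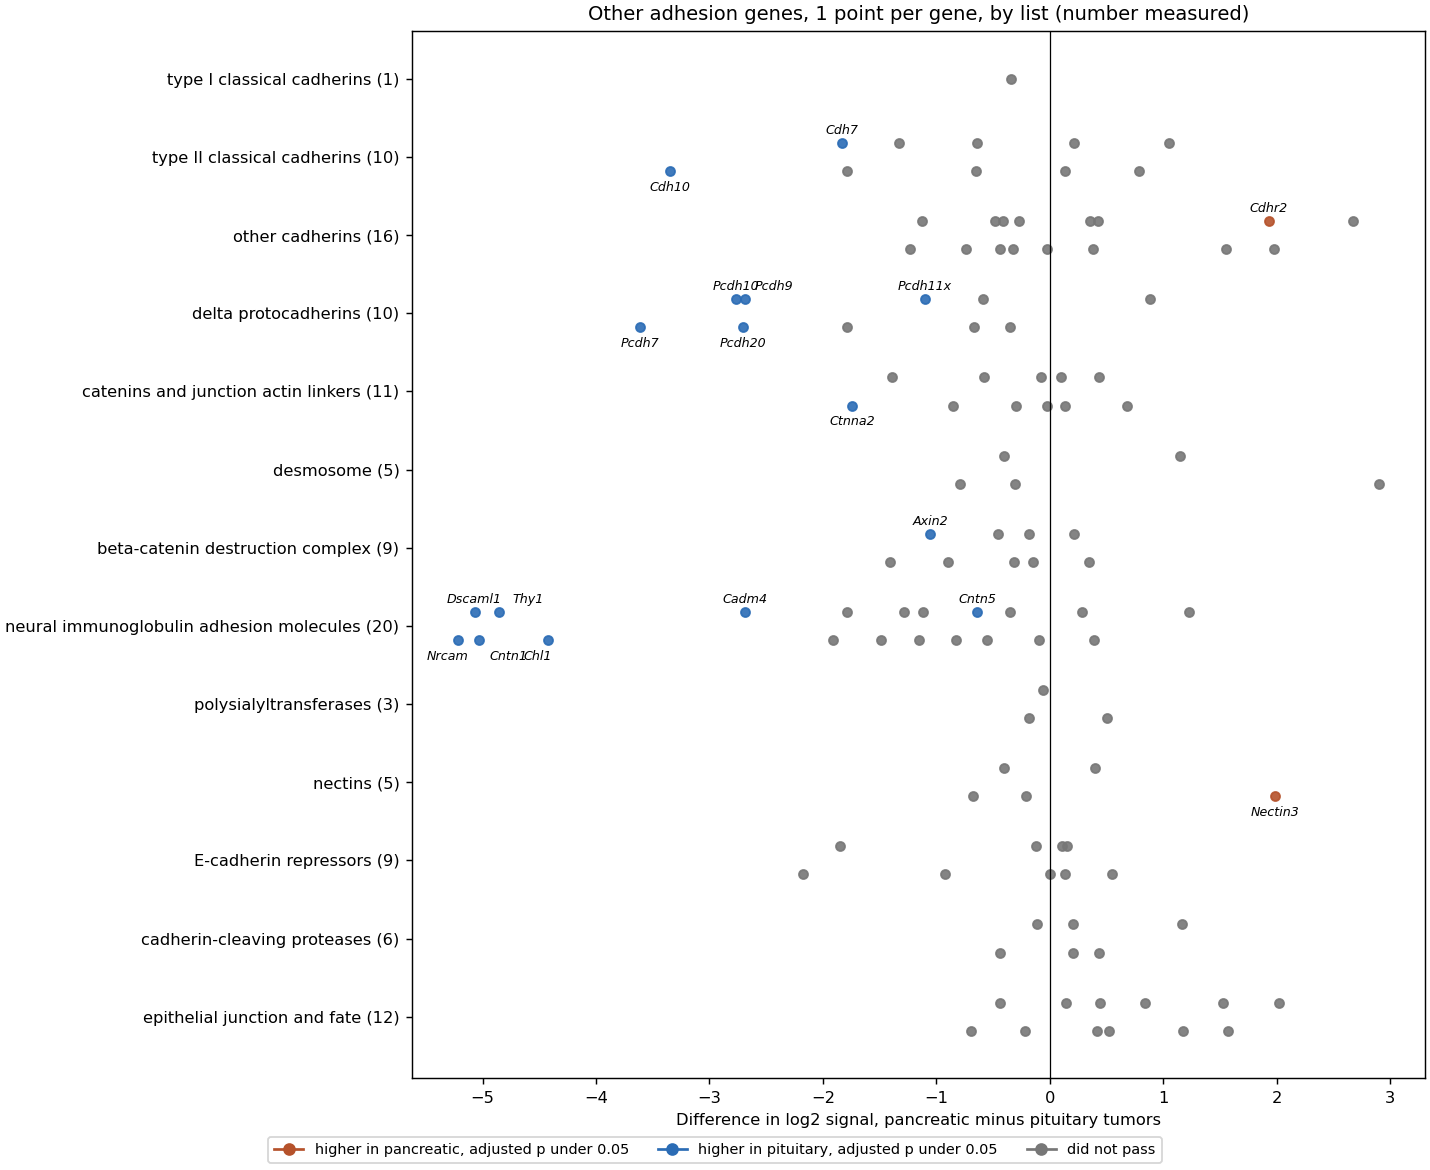
Difference in log2 signal (pancreatic minus pituitary tumors, x axis) of 117 adhesion genes in 13 lists, with 1 point per gene at its brightest probe set and names for the 18 that passed. The neural immunoglobulin molecules and the delta protocadherins reach farthest to the left, to -5.22 for Nrcam and -3.61 for Pcdh7.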

How the data were processed

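RNA of 12 tumors was measured on Affymetrix whole-genome mouse arrays. The deposited values are log2 signals per probe set, normalized by the authors. The study names Partek software, and RMA for a further analysis, but which step made these values is not stated. No raw intensity or detection call was used here. Of 45101 probe sets, 64 controls were left out. Of the 45037 tested, 34945 have 1 gene symbol, 932 several and 9160 none in the platform annotation. For each of 18193 genes the probe set with 1 symbol and the highest mean of both group means was used.

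The 9 pancreatic tumors were compared with the 3 tumors labelled as brain in limma 3.58.1 (R 4.3.3), with Benjamini-Hochberg adjustment over all probe sets and a threshold of 0.05. The labels name no batch, and p-values measure only the spread between these tumors. On simulated data of this design the fit called 27, 38, 48 and 48 of 50 probe sets changed by 1, 2, 4 and 6 log2 units, and 9 of 44837 unchanged ones. There both groups were drawn with the SD of the pancreatic tumors, so the counts hold for equal spreads only. Measured spreads could be unequal either way. The SD at the pituitary and the pancreas was 2.70 and 0.22 for Chl1, and 0.12 and 0.20 for Dscaml1. Alternatives were array weights, quantile normalization, median centring, a trended and robust variance, no moderation, a signal filter, averaging the probe sets of each gene, a size limit of 1 log2 unit, and tumors left out. The fit without pituitary tumors 6 and 8 was chosen after seeing the data. Named genes were the members, up to 4 genes per list with the largest difference among those that passed, the gene with the highest mean where none passed, and the 3 genes most like Cdh1 and Cdh2. Cdh12, Cdh24 and Cadm2 were not analysed here. The members and lists were chosen with earlier results of these data known.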

Additional observations from a re-analysis of the deposited data

Results flagged for a closer look

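Among the 9 pancreatic tumors, 5 of the 26 probe sets had 1 tumor whose gap to the nearest other tumor, as a share of the whole range, exceeded Dixon's critical value of 0.493. Chance alone gives about 1 such case in 20. Tumor 2 was the low one for Ncam1 at 1426864_a_at (signal 6.67, ratio 0.576) and at 1426865_a_at (7.16, ratio 0.495), and for Cdh4 at 1456397_at (4.87, ratio 0.501). Tumor 10 was the high one for Cdh11 at 1435120_at (5.35, ratio 0.533), below the median probe set of its array. Tumor 5 was the low one for Ctnnb1 at 1450008_a_at (8.03, ratio 0.522).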

How the results depend on the processing

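Cdh1 passed, at 3.82 to 4.35, under all settings but 1, the fit without pituitary tumors 6 and 8. Counts give probe sets of the 9 genes higher in pancreatic and in pituitary tumors (2 and 1 as reported), genes by 1 probe set (1 and 0) and listed genes (2 and 16). With array weights 4 probe sets, 3 genes and 6 listed genes were higher in pancreatic and 27 listed genes in pituitary tumors. With the mean of all probe sets, 2 genes and 4 listed genes were higher in pancreatic tumors. With a signal filter 0 probe sets were higher in pituitary tumors, since the filter removes that of Cdh11. Without moderation 0 probe sets were higher in pituitary and 0 listed genes in pancreatic tumors. Without pancreatic tumors 10, 11 and 12, 1 probe set and 1 listed gene were higher in pancreatic and 8 listed genes in pituitary tumors. Without pancreatic tumors 2, 3 and 4, 0 probe sets were higher in pituitary and 2 genes in pancreatic tumors, and the median SD of the 9 genes was 0.596 instead of 0.932. Without pituitary tumors 6 and 8, 0 probe sets and 0 genes passed, with 0 listed genes higher in pancreatic and 6 in pituitary tumors. With 1 tumor left out, probe sets ranged from 1 to 4 and from 0 to 2, genes from 1 to 2 and from 0 to 1, and listed genes from 0 to 4 and from 8 to 24. Shares over all probe sets and genes were counted only for the fit as reported. The causes were not tested.

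Signs turned only where no call was made. With array weights this held for Cdh13 at 1431824_at (-0.026) and 1454015_a_at (-0.0058), St8sia3 (0.27) and Psenen (0.012). With the mean of all probe sets it held for Ctnnb1 (0.21), and with quantile normalization for St8sia3 (0.094). With 1 tumor left out the range crossed 0 for Ncam1 at 1421966_at (-0.045 to 0.19), 1450438_at (-0.30 to 0.011) and 1439556_at (-1.22 to 0.10), Ctnnb1 at 1450008_a_at (-0.22 to 0.41), Dsg2 (-0.87 to 0.33), St8sia3 (-0.17 to 0.27), Cdh13 at 1431824_at (-0.036 to 0.17) and 1434115_at (-0.19 to 0.57), and Cdh15 (-0.58 to 0.058). Without pancreatic tumors 10, 11 and 12 it held for Cdh13 at 1454015_a_at (-0.17), L1cam at 1421958_at (-0.0049) and Ctnnb1 at 1450008_a_at (-0.053). Without pancreatic tumors 2, 3 and 4 it held for Ncam1 at 1421966_at (-0.000895), St8sia3 (0.28) and Epcam (0.080). Without pituitary tumors 6 and 8 it held for Ncam1 at 1421966_at (-0.25), L1cam (0.51), Ctnnb1 (0.065) and Cdh15 (0.14). No paired analysis was possible because the sources used here do not name the mouse of each array. The 3 pituitary tumors limit the precision of every difference.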
